A study of Mus musculus with 6 samples.

Results

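The interferon response genes examined here were 37 listed genes, chosen by their place in the pathway, with earlier results of these data known. By role they are receptors and kinases, transcription factors, sensors of foreign RNA, membrane proteins, GTPases and enzymes that act on viral RNA or on nucleotides. They were followed in mouse embryonic stem (ES) cells with Prdm14 overexpression and in ES cells with a control vector, with 3 arrays per group. Both groups were of a 129P2 background and were grown with serum, and a reporter line, Rex1-GFPd2 (Zfp42-GFPd2), was the parent of the stable overexpressing lines of the study. PRDM14 is a PR domain protein of germ cells and naive pluripotent cells, and the question here was how these genes stand once it is raised in cells that drift towards differentiation. The 3 samples of a group were taken at consecutive passages, and the sources used here do not say which line or clone the arrays came from, nor name the promoter of the construct. The p-values therefore measure the spread between passages, and the effect of Prdm14 cannot be told apart from other differences between the cells made with each vector.

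A probe names 21 of the 37 genes here, and 17 of these were tested, out of 8529 genes tested in the whole series. A probe counted as above background where its detection p, a rank against negative control beads, was under 0.01, and probes above background on 3 or more of the 6 arrays were tested. The 4 genes with a named probe that did not pass this filter were Ifnar2, Irf2, Oas1a and Gbp3. The other 16 had no named probe here: Ifnar1, Ifngr1, Irf7, Irf8, Ifih1, Oasl2, Mx1, Mx2, Isg15, Isg20, Ifit1, Ifit2, Ifit3, Rsad2, Usp18 and Ifi35. The annotation used here covers only probes that were above background on at least 1 array, so nothing is known here of the level of these 16.

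Interferons are secreted proteins that cells release on infection. Type I interferon binds the receptor IFNAR1/IFNAR2 and, through the kinases JAK1 and TYK2, leads to a complex with STAT2 and IRF9, which binds the interferon-stimulated response element (ISRE), whereas interferon gamma binds IFNGR1/IFNGR2 and acts through the gamma-activated site (GAS). The genes switched on in this way block virus entry, replication and translation. Pluripotent cells are known for a weak response to interferon and for a basal expression of some of these effectors, the IFITM proteins among them.

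The promoters of the genes that carried the comparison are shown for orientation, since ISRE and GAS are the elements through which the pathway acts. Each is the stretch of 250 bases before the annotated start (RefSeq, GRCm38.p6), read 5′ to 3′ on the strand of the gene: Gbp2 at chr3:142620413-142620662 (+), Irf1 at chr11:53769764-53770013 (+), Ifitm1 at chr7:140967826-140968075 (+) and Ifitm2 at chr7:140955962-140956211 (−). Capitals mark a match to the ISRE core (GAAA, any 2 bases, GAAA) or the GAS core (TTCNNNGAA), searched on both strands, where N is any base.
Gbp2: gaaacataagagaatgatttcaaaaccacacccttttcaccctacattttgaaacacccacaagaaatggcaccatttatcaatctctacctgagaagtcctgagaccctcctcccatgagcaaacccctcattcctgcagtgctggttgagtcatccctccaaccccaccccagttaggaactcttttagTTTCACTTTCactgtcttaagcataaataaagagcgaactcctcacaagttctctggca
Irf1: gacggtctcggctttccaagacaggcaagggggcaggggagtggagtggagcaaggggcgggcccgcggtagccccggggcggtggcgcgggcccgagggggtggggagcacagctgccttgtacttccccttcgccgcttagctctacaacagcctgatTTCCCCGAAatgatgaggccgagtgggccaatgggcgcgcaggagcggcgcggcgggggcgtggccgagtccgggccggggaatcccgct
Ifitm1: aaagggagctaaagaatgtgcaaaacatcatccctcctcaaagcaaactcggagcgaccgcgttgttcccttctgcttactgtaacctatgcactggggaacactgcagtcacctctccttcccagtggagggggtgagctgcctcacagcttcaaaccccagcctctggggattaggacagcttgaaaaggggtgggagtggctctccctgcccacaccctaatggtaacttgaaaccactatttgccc
Ifitm2: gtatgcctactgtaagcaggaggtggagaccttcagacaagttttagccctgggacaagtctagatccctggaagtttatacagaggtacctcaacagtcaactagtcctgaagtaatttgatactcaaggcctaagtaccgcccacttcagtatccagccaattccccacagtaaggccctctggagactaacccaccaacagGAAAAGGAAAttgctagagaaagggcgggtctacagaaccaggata
The match in Gbp2 is an ISRE core on the opposite strand, 59 bases before the start. The match in Irf1 is a GAS core 90 bases before the start, and that in Ifitm2 is an ISRE core 46 bases before it, while neither run of letters occurs in the Ifitm1 window. Irf1 has another annotated start with its own window, which holds neither. In the RefSeq windows, which run on to 50 bases after the start, 15 of the 34 listed genes with a window (44.1%) had an ISRE core, against 1079 of 27025 genes (3.99%). A GAS core was found in 14 of the 34 (41.2%), against 2582 of 27025 (9.55%). The list was made up of interferon genes, so these shares describe the list. Among the 17 tested genes, ISRE cores were found in Stat2, Ddx58, Eif2ak2, Ifitm2, Ifitm3, Bst2 and Gbp2, and GAS cores in Irf1, Eif2ak2, Ifitm3, Bst2, Adar and Samhd1. Genes with either core thus included genes that fell and genes that did not pass the test.

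Prdm14 itself had signals of 14907, 10751 and 11016 in overexpressing cells, against 800.7, 672.6 and 854.9 in control cells, which is 14.5-fold higher (limma adjusted p = 8.11e-07). Signals are bead averages without background subtraction, with no unit. Each array held 45281 probes, of which 31.7% to 32.6% were above background on the overexpression arrays and 31.1% to 32% on the control arrays. Probes above background on no array had median signals of 73.3 to 81.2 in overexpressing cells and 59.6 to 62.8 in control cells, so the background itself was brighter on the overexpression arrays. Differences are given on the normalized log2 scale, as overexpression minus control. All 10 ES cell markers examined (Pou5f1, Sox2, Nanog, Zfp42, Esrrb, Dppa5a, Dppa4, Utf1, Fgf4 and Tdgf1) were above background and none passed the test. Their differences ran from -0.12 for Utf1 to 0.34 for Tdgf1, and Nanog came closest to the threshold, at 0.34 (limma adjusted p = 0.0467).

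Of the 17 tested interferon genes 3 passed the threshold, an adjusted p of 0.01 over all genes tested with limma, and all 3 were lower in overexpressing cells: Gbp2, Irf1 and Ifitm1. Over the whole series 4.64% of genes passed, 2.9% lower and 1.75% higher. The same 3 genes passed with the replicate number as a block, where 6.52% of all genes did, 3.87% lower. One of the 3, Gbp2, was tested only because it was above background in control cells, so for it a difference was built into the filter. The other 14 genes had differences between -0.76 and 0.23. The median difference of the 17 genes was 0.02, against -0.0016 for all genes tested, with 9 genes above 0 and 8 below. With arrays scaled to a common median in place of quantile normalization, the median of all genes moved to 0.11 and that of the interferon genes to 0.09, with 10 above 0 and 7 below, and the same 3 genes passed. The listed genes thus lay on both sides of 0, and 12 of the 17 were within 0.25 of no difference, as did 71.5% of all genes. In bulk RNA such as this, fewer cells with a transcript and less of it per cell cannot be told apart.

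**Figure D1:**
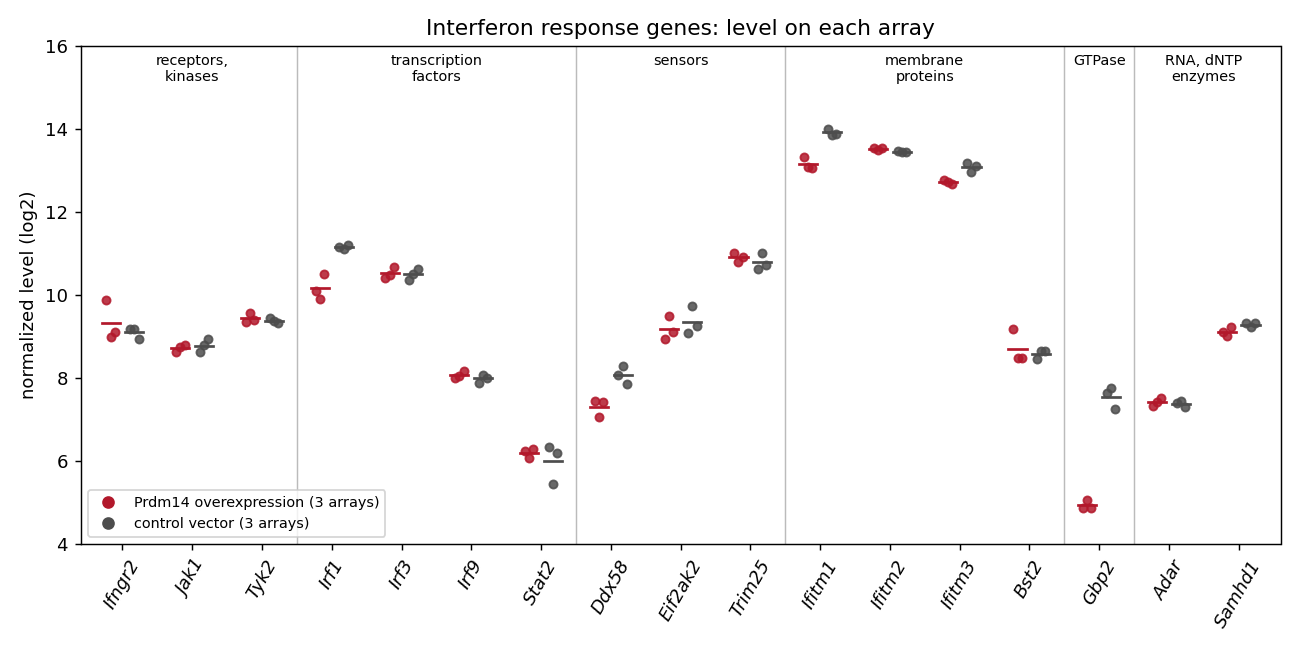
Normalized log2 level (vertical axis) of the 17 tested interferon response genes on each of the 3 overexpression arrays (red) and 3 control arrays (grey), with group means as bars, grouped by role. Levels can be compared within a gene but not between genes, which have different probes. Gbp2 averaged 4.94 in overexpressing cells and 7.56 in control cells, and for most other genes the points of both groups overlap.

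The deepest decrease was that of Gbp2, which encodes a guanylate-binding protein, an interferon-induced GTPase that attacks the compartments of intracellular pathogens. Its probe gave signals of 86.7, 85.3 and 77.7 in overexpressing cells, against 216.2, 230.8 and 205.1 in control cells. None of the 3 overexpression arrays had it above background, all 3 control arrays had, and the groups were far apart. The normalized level averaged 4.94 ± 0.11 in overexpressing cells and 7.56 ± 0.26 in control cells (SD, n = 3 each), a difference of -2.61 ± 0.14 (SE; limma adjusted p = 2.72e-05). As the level in overexpressing cells lies in the background, the fold is a bound on this background-corrected scale only: Gbp2 was at least 2.67-fold lower, the control mean being set against the lowest level detected on each overexpression array. The decrease passed the threshold whichever array was left out, with differences of -2.76 to -2.53, but its size differed between processings, at -1.68 without background correction and -0.83 in the authors' normalized values, which is smaller than that bound.

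Gbp2 lies on chromosome 3 in a row of guanylate-binding protein genes, in the order Gbp5, Gbp7, Gbp3, Gbp2b and Gbp2. The listed neighbour Gbp3 was too dim to be tested, with signals of 122.2, 95.9 and 90.9 in overexpressing cells, against 139.4, 118.3 and 109.6 in control cells. It was above background on 0 overexpression arrays and 2 control arrays, and its raw signals overlapped between the groups, whereas normalized levels did not, at 5.53, 5.35 and 5.16 in overexpressing cells against 6.75, 6.36 and 5.88 in control cells. Whether the Gbp2 probe takes up RNA of a related gene of the row was not tested, as probe sequences were not used here.

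Irf1 encodes a transcription factor that is itself induced by interferon gamma and binds ISRE-like elements. Its brightest probe gave 1437, 971.5 and 1579 in overexpressing cells, against 1950, 2061 and 2414 in control cells. Each overexpression array lay below each control array, and the gene fell 1.98-fold, by 0.99 ± 0.15 in log2 (SE over 3 arrays per group; limma adjusted p = 0.00369; 95% interval of the difference -1.32 to -0.65). The remaining 3 probes of Irf1 gave like differences, which serve as a repeat of the measurement within the same RNA. Probe ILMN_2599782 had signals of 452.2, 369.1 and 487.4 in overexpressing cells, against 690.3, 610.5 and 724.6 in control cells, a difference of -1.02 ± 0.14 (limma adjusted p = 0.00277 over all probes, of which 3.5% passed, 2.1% lower). The dimmer probes ILMN_2649067 and ILMN_2649068 differed by -1.16 ± 0.22 and -1.12 ± 0.22 and did not pass (limma adjusted p = 0.0142 and 0.0154). All 4 probes had groups that did not overlap. The call of the gene depended on the array left out. It was lost without overexpression array 1 (adjusted p = 0.0203) and without control arrays 1, 2 or 3 (adjusted p = 0.0207, 0.0107 and 0.0153, limma). It was kept without overexpression arrays 2 or 3 (adjusted p = 0.0096 and 0.0011, limma). The differences were -1.16 to -0.86 over the 6 omissions.

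Ifitm1 encodes a small interferon-induced transmembrane protein, of the family that hinders the fusion of enveloped viruses with the cell. Its brightest probe gave 11981, 8706 and 8640 in overexpressing cells, against 14579, 15062 and 15124 in control cells. The groups did not overlap, and Ifitm1 fell 1.70-fold, by 0.76 ± 0.11 in log2 (SE over 3 arrays per group; limma adjusted p = 0.00268; 95% interval of the difference -1.0 to -0.52). A further bright probe, ILMN_1214071, gave 8117, 5482 and 6520 in overexpressing cells, against 13262, 12512 and 12830 in control cells. Its difference was -1.11 ± 0.11 (limma adjusted p = 0.000903 over all probes). Probe ILMN_2814484, near the background, gave 244.7, 177.7 and 188.2 in overexpressing cells, against 404.3, 319.7 and 394.1 in control cells, a difference of -1.50 ± 0.13 (limma adjusted p = 0.000323). Both thus passed in the same direction, with differences larger than that of the brightest probe. The fourth tested probe, ILMN_1245129, was above background on 1 overexpression array and 3 control arrays and differed by -0.78 ± 0.22 (limma adjusted p = 0.0626). The call of the gene was lost without overexpression arrays 2 or 3 (adjusted p = 0.0123 and 0.0101) and without control arrays 1 or 3 (adjusted p = 0.0166 and 0.0104, limma).

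Ifitm1 lies between Ifitm2 and Ifitm3 on chromosome 7, and the 3 neighbours gave different values. Ifitm2 had signals of 13838, 11598 and 11826 in overexpressing cells, against 9975, 10990 and 11318 in control cells. After normalization its difference was 0.08 ± 0.08 (SE over 3 arrays per group; limma adjusted p = 0.606), with a 95% interval of -0.11 to 0.28, although the 3 overexpression arrays stood just above the control arrays. Ifitm3 had signals of 8454, 6745 and 6603 in overexpressing cells, against 8030, 7628 and 8946 in control cells. Its raw signals overlapped, whereas normalized levels did not, at 12.77, 12.73 and 12.67 in overexpressing cells against 13.18, 12.96 and 13.12 in control cells. The difference of -0.37 ± 0.10 did not pass the threshold (limma adjusted p = 0.0453; 95% interval -0.59 to -0.15). Thus the interval of Ifitm1 lies below that of Ifitm2 and meets that of Ifitm3, but the differences between these genes were not tested. The IFITM genes are alike in sequence, and whether a probe takes up RNA of a neighbour was not tested. Bst2, whose product tetherin holds budding virus at the cell surface, had signals of 807.6, 396.1 and 437.8 in overexpressing cells, against 341, 395.6 and 451.2 in control cells. Only overexpression array 1 stood out, and the difference of 0.13 ± 0.18 did not pass (limma adjusted p = 0.745) and was -0.11 without that array.

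**Figure D2:**
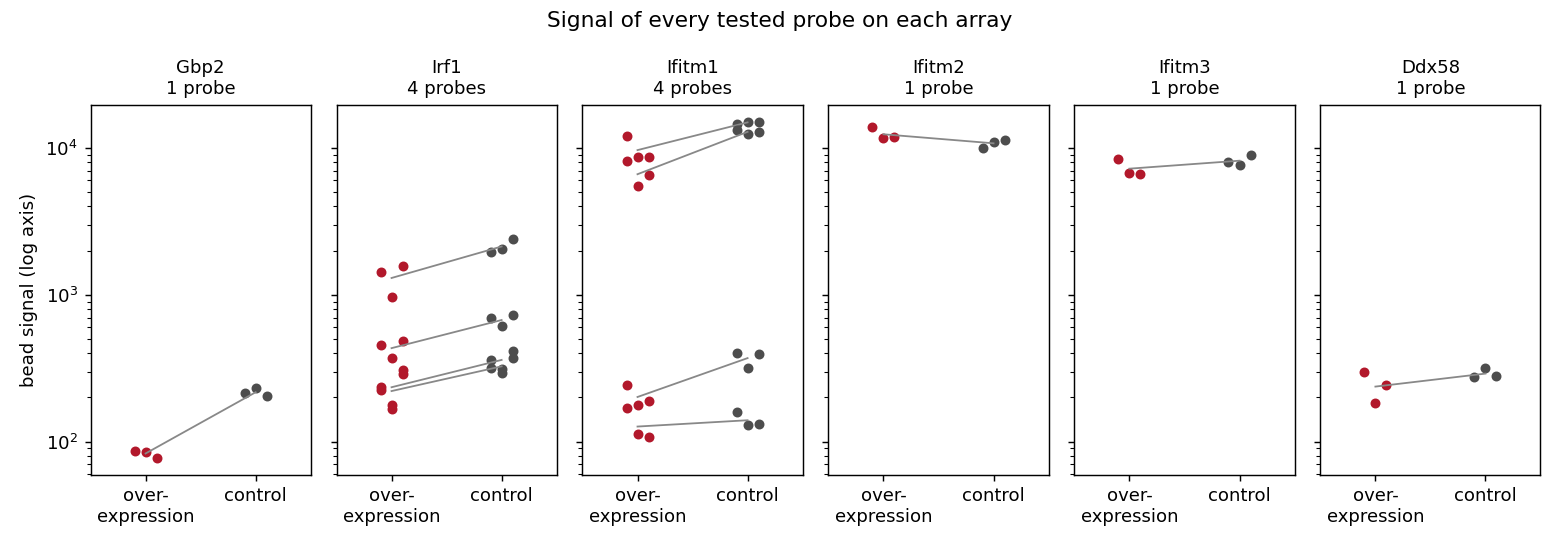
Bead signal (vertical log axis, no unit) of every tested probe of Gbp2, Irf1, Ifitm1, Ifitm2, Ifitm3 and Ddx58 on each array, with overexpression in red on the left and control in grey on the right, and lines joining the group means of a probe. All 4 probes of Irf1 and the 4 of Ifitm1 have lower group means in overexpressing cells. The slope is slight for Ifitm1 probe ILMN_1245129, whose signals overlap between the groups. Ifitm2 signals are somewhat higher in overexpressing cells, before normalization.

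Among the sensors, Ddx58 came closest to the threshold. It encodes RIG-I, a helicase that recognizes viral RNA in the cytoplasm. Its signals were 296.8, 183.6 and 244.9 in overexpressing cells, against 275.9, 316.1 and 281.9 in control cells. They overlapped through overexpression array 1, but normalized levels did not, at 7.45, 7.05 and 7.44 in overexpressing cells against 8.09, 8.29 and 7.86 in control cells. The difference was -0.76 ± 0.15 (SE over 3 arrays per group; limma adjusted p = 0.0119; 95% interval -1.10 to -0.43), close to that of Ifitm1 but with a larger error. It passed without background correction (adjusted p = 0.00427) and in the authors' normalized values (adjusted p = 0.00709, limma), where it was -0.41. Eif2ak2, the kinase PKR that halts translation on double-stranded RNA, had signals of 704.1, 746.1 and 640.5 in overexpressing cells, against 503.1, 800.5 and 666.6 in control cells, which overlapped. Its difference was -0.18 ± 0.19 (limma adjusted p = 0.622; 95% interval -0.61 to 0.25). Trim25, a ubiquitin ligase that acts on RIG-I, differed by 0.12 ± 0.12 (limma adjusted p = 0.611; 95% interval -0.16 to 0.39), with signals of 1774 to 2659 in overexpressing cells and 1384 to 1931 in control cells.

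The receptor chain and kinases gave no difference past the threshold. Ifngr2, a chain of the receptor for interferon gamma, had signals of 1268, 543.8 and 647.8 in overexpressing cells, against 531.5, 557.1 and 544.3 in control cells. As for Bst2, overexpression array 1 was by far the highest. The difference of 0.23 ± 0.21 (SE over 3 arrays per group; limma adjusted p = 0.574) became -0.05 without it. Jak1, the kinase shared by the receptors for both types of interferon, had signals of 582.1, 465.9 and 528.5 in overexpressing cells, against 374.7, 430.6 and 543 in control cells. Its difference was -0.06 ± 0.11 (limma adjusted p = 0.810; 95% interval -0.31 to 0.19), and with median scaling it was 0.09. Tyk2, the partner kinase at the type I receptor, differed by 0.07 ± 0.10 (limma adjusted p = 0.753; 95% interval -0.16 to 0.29). Ifnar2, a chain of the type I receptor, was above background on 1 overexpression array and 0 control arrays and was not tested, with signals of 151.5, 132.6 and 115.8 in overexpressing cells, against 98.1, 105.1 and 120.9 in control cells.

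Of the transcription factors other than Irf1, none passed. Irf3, which switches on interferon genes once a sensor has fired, had signals of 1769, 1428 and 1761 in overexpressing cells, against 1147, 1355 and 1644 in control cells. The difference was 0.02 ± 0.11 (SE over 3 arrays per group; limma adjusted p = 0.937; 95% interval -0.23 to 0.28). Its dimmer probes ILMN_1224505 and ILMN_1229320 differed by -0.02 ± 0.11 and 0.30 ± 0.14 (limma adjusted p = 0.946 and 0.249 over all probes). Irf9, the subunit that brings STAT2 to the ISRE, differed by 0.08 ± 0.10 (limma adjusted p = 0.664), and its dimmer probe by 0.37 ± 0.11 (limma adjusted p = 0.0797 over all probes). The brighter probe gave 401.2, 306.5 and 368.8 in overexpressing cells, against 246.7, 277.5 and 307.9 in control cells. Stat2 was close to background, above it on 2 overexpression arrays and 1 control array, and differed by 0.21 ± 0.21 (limma adjusted p = 0.606; 95% interval -0.27 to 0.69), so a change of up to 0.69 in size lies within its interval. Irf2, a relative of IRF1 that can oppose it at the same elements, was above background on 0 overexpression arrays and 2 control arrays and was not tested. Its signals were 132.4, 103.3 and 129 in overexpressing cells, against 110, 97.5 and 129.9 in control cells, and overlapped.

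Enzymes that act on RNA or nucleotides did not pass either. Adar, which deaminates adenosine in double-stranded RNA, gave 278.4, 219.1 and 257.8 in overexpressing cells, against 189.5, 193.9 and 209.2 in control cells with its brightest probe. After normalization these groups overlapped, at a difference of 0.04 ± 0.10 (SE over 3 arrays per group; limma adjusted p = 0.839). The other 3 probes of Adar had differences of -0.32, -0.05 and -0.33, so the sign depended on the probe. Samhd1, which breaks down nucleotides that viruses need, differed by -0.17 ± 0.10 (limma adjusted p = 0.340; 95% interval -0.39 to 0.06), with signals of 549.1 to 776.3 in overexpressing cells and 567.6 to 689 in control cells. Oas1a, of the family that senses double-stranded RNA and activates RNase L, was above background on 2 overexpression arrays and 0 control arrays and was not tested. Its signals were 189.5, 118 and 141.7 in overexpressing cells, against 104.8, 109.5 and 105.8 in control cells. Normalized levels overlapped, at 6.56, 5.95 and 6.27 in overexpressing cells against 6.07, 6.15 and 5.79 in control cells.

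**Figure D3:**
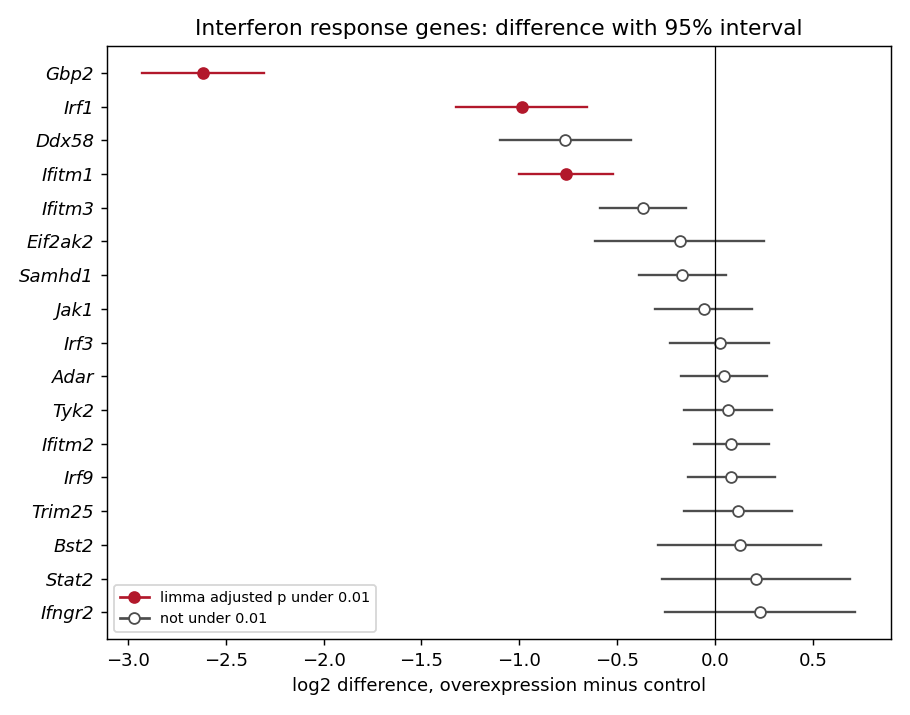
Difference in normalized level (horizontal axis, log2, overexpression minus control) of the 17 tested interferon response genes with 95% intervals from limma. Filled red points have an adjusted p under 0.01: Gbp2 at -2.61, Irf1 at -0.99 and Ifitm1 at -0.76, and the intervals of 12 genes include 0.

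Groups did not overlap for 6 of the 17 genes, 5 with overexpressing cells lower (Gbp2, Irf1, Ddx58, Ifitm1 and Ifitm3) and 1 with them higher (Ifitm2). Over all genes the groups did not overlap for 29.9%, 15.3% lower and 14.7% higher. The precision of the measurements was limited by the 3 arrays per group, with standard errors of 0.08 to 0.21 on the log2 scale and a median of 0.11. A 95% interval then reaches 2.27 standard errors to either side.

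Markers of other cell types were examined beside these values. The tested trophectoderm markers (Krt8 and Krt18, 2 of 6 listed) both fell, with summed signals of 270 to 329 in overexpressing cells and 427 to 648 in control cells, and Cdx2, Elf5, Eomes and Tfap2a were not tested. Of the primitive endoderm list only Lama1 was tested, 1 of 7, and it fell, with signals of 510 to 575 in overexpressing cells and 626 to 960 in control cells. Of the fibroblast list Thy1 and Acta2 were tested, 2 of 9, of which Acta2 fell, with summed signals of 377 to 453 in overexpressing cells and 432 to 635 in control cells. These markers moved in the same direction as Gbp2, Irf1 and Ifitm1, and their part in those decreases was not tested. Of the haematopoietic list Laptm5 and Coro1a were tested, 2 of 8, and neither passed, with summed signals of 4823 to 5721 in overexpressing cells and 4154 to 5971 in control cells, while Ptprc, Csf1r and Cd68 were not tested.

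The wider pathway was followed through 120 further genes in 6 lists, with a named probe for 54 and a tested one for 49. Of these 6 passed (12.2%), 4 higher and 2 lower in overexpressing cells, against 4.64% of all genes. Of the 4 higher genes, Irf5 and Ube2l6 were tested only because they were above background in overexpressing cells, so for them a difference was built into the filter. Of the 2 lower genes, Lgals9 likewise met the filter only with its control arrays. No gene of the interferon ligand list was named by a probe here. Of 11 tested receptors, kinases and negative regulators 1 passed, Ptpn6, which encodes the phosphatase SHP-1 that damps JAK signalling. Its signals were 1155, 863.2 and 982.8 in overexpressing cells, against 570.9, 523.8 and 553.6 in control cells. It rose by 0.63 ± 0.11 in log2 (SE over 3 arrays per group; limma adjusted p = 0.00635), a call lost whichever array was left out (adjusted p = 0.0101 to 0.0270). Socs3, which encodes another inhibitor of the kinases, gave 2603, 1916 and 2169 in overexpressing cells, against 1679, 2210 and 2585 in control cells, with a difference of -0.18 ± 0.11 (limma adjusted p = 0.370). Jak2, the kinase at the IFNGR2 chain, was not tested, being above background on 2 overexpression arrays and 0 control arrays.

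Of 8 tested sensors and adaptors 1 passed (12.5%), against 4.64% of all genes in either direction, a share that rests on 1 gene. This gene was Cgas, which encodes the cytoplasmic DNA sensor, and it rose. Its signals were 642.3, 521.1 and 560.8 in overexpressing cells, against 210.8, 260.2 and 342.3 in control cells. The groups stood clearly apart, with a difference of 0.95 ± 0.15 (SE over 3 arrays per group; limma adjusted p = 0.00453), but the call was lost without any of overexpression arrays 1, 2 and 3 or control arrays 1 and 2 (adjusted p = 0.0107 to 0.0175, limma). Aim2, which encodes another DNA sensor, had signals of 176.8, 126.1 and 137.2 in overexpressing cells, against 163.5, 164.5 and 153.2 in control cells. Its difference of -0.71 ± 0.14 did not pass (limma adjusted p = 0.0117) but did with the replicate number as a block (adjusted p = 0.00676). Of 8 tested transcription factors 1 passed (12.5%, likewise 1 gene), Irf5, a relative of Irf3 best known from immune cells, which rose. It gave 158.1, 154.3 and 168.7 in overexpressing cells, against 80.1, 70.6 and 88.2 in control cells, where it was above background on 0 of 3 arrays. Irf5 was at least 1.21-fold higher (fitted difference 1.27 ± 0.16; limma adjusted p = 0.00191), and its difference was 0.35 in the authors' normalized values. As for Gbp2, the bounds for Irf5 and Ube2l6 hold on the background-corrected scale only.

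Of 21 other interferon-stimulated genes tested 3 passed (14.3%), 1 higher and 2 lower, against 4.64% of all genes. Ube2l6, the conjugating enzyme for ISG15, had signals of 211.7, 173.1 and 169.9 in overexpressing cells, against 93.9, 107.5 and 113.6 in control cells, where it was above background on 0 of 3 arrays. It was at least 1.51-fold higher (fitted difference 0.86 ± 0.12, SE over 3 arrays per group; limma adjusted p = 0.00239). The call was lost without overexpression array 1 (adjusted p = 0.0126) or control array 1 (adjusted p = 0.0113) and in the authors' normalized values (adjusted p = 0.0238, limma), where the difference was 0.26, against 0.52 without background correction. Lgals9, which encodes the secreted lectin galectin-9, had signals of 182.1, 112.4 and 128.8 in overexpressing cells, against 230.4, 227.3 and 222.1 in control cells, and was above background on 1 overexpression array and 3 control arrays. It fell by 1.54 ± 0.17 on the log2 scale (limma adjusted p = 0.00112) and passed with each array left out, though its difference was -0.59 in the authors' normalized values. Lgals9 met the filter only with its control arrays, so a difference was in part built into the filter. Ogfr, the opioid growth factor receptor gene, had signals of 444.3, 342.8 and 434 in overexpressing cells, against 447.7, 459.9 and 574 in control cells. It fell by 0.65 ± 0.11 (limma adjusted p = 0.00536), a call lost with median scaling (adjusted p = 0.0264) and without overexpression arrays 1 or 2 or control arrays 1, 2 or 3 (adjusted p = 0.0137 to 0.0246). B2m, the light chain of class I histocompatibility molecules, differed by -0.32 ± 0.09 (limma adjusted p = 0.0551). The genes that passed thus went in both directions, and the only tested member of the GTPase list, Irgm1, did not pass with its brighter probe.

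**Figure D4:**
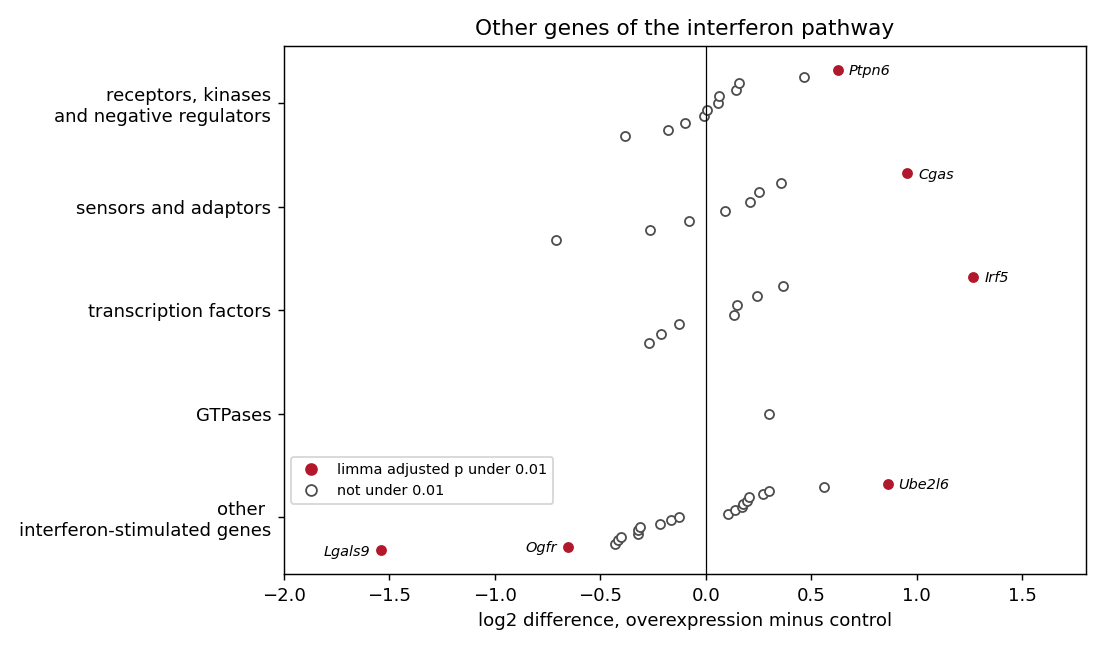
Difference in normalized level (horizontal axis, log2, overexpression minus control) of the 49 tested further genes of the interferon pathway, in rows by list. Filled red points have a limma adjusted p under 0.01, with Ptpn6, Cgas, Irf5 and Ube2l6 to the right of 0 and Lgals9 and Ogfr to the left.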

How the data were processed

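Total RNA was labelled with biotin and hybridised to Illumina Mouse WG-6 BeadChips. The authors deposited the signal intensity of each probe, without normalization, with a detection p-value against negative control beads, and a table of normalized log2 values made with lumi, of which the transformation is not stated. Of its 6 columns 4 match another array than the one named (2 in the other group), so that table was used only as an alternative, with columns matched to arrays (r = 0.904 to 0.912).

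Signals were processed with neqc (offset 16) of limma 3.58.1 in R 4.3.3, and the 14604 probes above background (detection p under 0.01) on 3 or more arrays were tested by lmFit and eBayes with Benjamini-Hochberg adjustment. The threshold of 0.01 and the use of limma follow the study. A gene was represented by its brightest tested probe, and its p-value adjusted over 8529 genes. Values for other probes are adjusted over all tested probes. Of 13784 annotated probes 13778 had 1 symbol and 6 had several, which were not named, and 13765 matched RefSeq by gene identifier.

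The members and all gene and marker lists were chosen with earlier results of these data known. Every tested member was named, and of the further lists every gene that passed, with Socs3, Jak2 and B2m. Aim2 and Irgm1 were named after their values were seen. One gene of the lists is not reported here. Samples with the same replicate number deviated together (r = 0.121, 0.390 and 0.324), only weakly for number 1, where a pair of unlike numbers reached 0.058. The numbers may thus pair them, and a fit with the number as a block was an alternative. The other alternatives changed the normalization, background correction, offset, filter, choice of probe, variance model and arrays used. The fit and the p-value adjustment were run on simulated data with independent noise between arrays, which does not test the background correction or the normalization.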

Additional observations from a re-analysis of the deposited data

How the results depend on the processing

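The fit with a replicate block passed 556 genes of the whole series, against 396 without it, and 3 interferon genes in both. Among the interferon genes and the named further genes of the pathway, each by its brightest probe, the block changed only the call of Aim2. The count of interferon genes that passed was 5 with trended robust variances and 5 in the authors' normalized values, Ddx58 and Ifitm3 being added to Gbp2, Irf1 and Ifitm1 in each. Calls over the whole series rose as well, to 619 and 522 genes in these settings. Leaving out 1 array at a time gave 1 to 2 interferon genes and 154 to 258 genes of the whole series, and trended robust variances gave 619 in all. Median scaling turned the balance of all calls, to 239 higher and 163 lower, against 149 higher and 247 lower with quantile normalization.

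Signs changed only for differences that had not passed. Over the omissions of 1 array the difference lay between -0.048 and 0.40 for Ifngr2 (negative without overexpression array 1), -0.11 and 0.24 for Bst2 (likewise), -0.00090 and 0.11 for Tyk2 (negative without overexpression array 2), -0.054 and 0.087 for Irf3 (negative without overexpression array 3 or control array 1), -0.0069 and 0.097 for Adar (negative without overexpression array 3), -0.067 and 0.39 for Stat2 (negative without control array 2), -0.34 and 0.0049 for Eif2ak2 (positive without control array 2) and -0.14 and 0.018 for Jak1 (positive without control array 3). Jak1 was at 0.087 with median scaling, and the mean of all probes gave -0.17 for Adar and -0.59 for Irgm1. The cause of these changes was not tested.

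Requiring detection on all 6 arrays leaves no value for Gbp2, Stat2, Irf5, Ube2l6, Lgals9 and Aim2, all of them close to background in 1 or both groups.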

Other observations

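The GTPase gene Irgm1, chosen after its values were seen, had a pair of probes with differences of opposite sign. The bright probe ILMN_2804037 gave signals of 20061, 19091 and 18009 in overexpressing cells, against 13822, 15146 and 13929 in control cells, a difference of 0.30 ± 0.09 in log2 (SE over 3 arrays per group; limma adjusted p = 0.0903 over all probes). The dim probe ILMN_1234539 gave 116.8, 124.9 and 108.4 in overexpressing cells, against 172.6, 195.8 and 167.9 in control cells. It was above background on 0 overexpression arrays and 3 control arrays and was at least 2.05-fold lower on the background-corrected scale (fitted difference -1.48 ± 0.20; limma adjusted p = 0.00307). This probe was tested only because it was above background in control cells, so a difference was built into the filter. Lgals9 had a second probe, which was above background on 0 overexpression arrays and 3 control arrays and at least 1.87-fold lower on that scale (limma adjusted p = 0.000952 over all probes), and the same limit of the filter holds for it.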
